A study of Mus musculus with 6 samples.

Results

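The p53 transcription factor gene Trp53 and genes known as its regulators or targets, 35 genes in all, were followed in cultured mouse lung fibroblasts after knockdown of Wt1, the Wilms tumor transcription factor. The genes were chosen by name, as rows of the deposited counts table whose symbol is on the list, and all 35 were found among its 24061 rows. All 35 also passed the filter on low counts, which kept 14190 genes for testing. The fibroblasts came from fibrotic lungs of mice with a TGF-alpha transgene, and the labels call them resident fibroblasts. Control libraries 1 to 3 came from cells given a stealth control siRNA, and libraries 4 to 6 from cells given a stealth siRNA against WT1, so that all 6 libraries carry the transgene and no group lacks it. What promoter drives the transgene, how old and how many the animals were, the siRNA sequences and the harvest time were not stated in the labels. Whether separate cultures or animals lie behind the 3 libraries of each group is likewise not stated, and p-values therefore reflect the spread among these samples alone, which may be technical.

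The p53 protein is a DNA-binding factor that is kept scarce in unstressed cells by the ubiquitin ligase MDM2, whose gene p53 itself switches on. DNA damage, nutrient stress and activated oncogenes release it from this loop. It then raises genes that halt the cell cycle, repair DNA, change metabolism or start apoptosis, and in fibroblasts it is also known for its part in senescence.

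Library totals were 26141921 to 32085698 counts. Levels are given as CPM, a gene's count as a share of the library's total after scaling with TMM factors, means with the SD of 3 libraries and log2 fold changes with their standard error. Wt1 fell from 52.0 ± 3.50 to 9.31 ± 1.83 CPM (log2 fold change -2.48 ± 0.16, edgeR adjusted p = 5.98e-06), with the groups apart. The summed level of 9 fibroblast markers was 21200 to 30440 CPM in controls and 32960 to 40190 CPM after Wt1 siRNA. Its members parted, with 5 higher (Col1a1, Col1a2, Vim, Dcn and Lum), 2 lower (Pdgfra at -1.17 ± 0.13 and Col3a1 at -0.46 ± 0.11) and 2 not passing. Markers of other cell types summed to less than the fibroblast ones. The 9 leukocyte markers gave 20.8 to 29.2 against 22.6 to 29.3 CPM and 10 epithelial markers 47.2 to 64.4 against 41.7 to 47.4 CPM. The 7 endothelial markers gave 98.6 to 122 against 80.3 to 99.4 CPM and 5 mesothelial markers 122 to 152 against 89.7 to 118 CPM. In controls the endothelial Cdh5, at 53.9 ± 12.1 CPM, and the mesothelial Lrrn4, at 70.9 ± 8.49 CPM, lay above Trp53 at 38.9 ± 2.18 CPM. Of the 6 endothelial markers tested 1 was called, Kdr, lower after Wt1 siRNA (log2 fold change -0.88 ± 0.23, edgeR adjusted p = 0.0191). That is 16.7% lower, against 10.3% of all genes tested. The other 5 did not pass, and by sign 1 of the 6 was positive, Tek (0.81 ± 0.33, edgeR adjusted p = 0.106). The mesothelial sum joins opposite changes, since all 5 of its markers passed: Msln (log2 fold change 0.87 ± 0.15) and Krt19 (1.12 ± 0.19) rose, while Lrrn4 (-2.10 ± 0.15), Upk3b (-2.16 ± 0.36) and Calb2 (-2.41 ± 0.73) fell. The epithelial and the leukocyte list each had 2 markers with no count in any library, among them Scgb1a1 of club cells and Cd3e of T cells. Others of these lists were present, with Krt8 at 19.9 ± 3.45, Krt18 at 20.7 ± 2.95 and Lyz2 at 19.7 ± 1.88 CPM in controls. Of the 6 epithelial markers tested 1 was called, Krt18, lower after Wt1 siRNA (log2 fold change -0.59 ± 0.16, edgeR adjusted p = 0.0214). Here too that is 16.7% lower, against 10.3% of all genes tested. The other 5 did not pass, Krt8 among them (-0.02 ± 0.17, edgeR adjusted p = 0.961), and by sign 1 of the 6 was positive, Ager. The part of these cells in the results below was not tested. In such bulk libraries, fewer cells of a type and less RNA per cell cannot be told apart.

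The p53 targets did not move as one group. After Wt1 siRNA 7 of the 35 genes rose (Slc19a2, Trp53inp1, Perp, Btg2, Gadd45a, Mdm2 and Phlda3), 6 fell (Dram1, Zmat3, Eda2r, Ercc5, Ccng1 and Mdm4) and 22 did not pass an edgeR adjusted p of 0.05. The 13 called genes are 37.1% of the 35, where 19.3% of all genes tested were called. By direction, 20.0% of the 35 were higher against 9.05% of all genes, and 17.1% were lower against 10.3% of all genes. The median log2 fold change of the 35 genes was 0.17, beside 0.00 over all genes tested, with 23 positive and 12 negative values. In 21 of the 35 genes, 60.0%, the 3 libraries of one group all lay above the 3 of the other, against 36.4% of all genes tested. In this way 13 of the 35 were higher after Wt1 siRNA and 8 of the 35 lower. Over all genes tested, 18.1% were higher without overlap and 18.3% lower. The genes had been put on the list with earlier results of these data known, so these shares describe the list and no test over it was made.

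**Figure D1:**
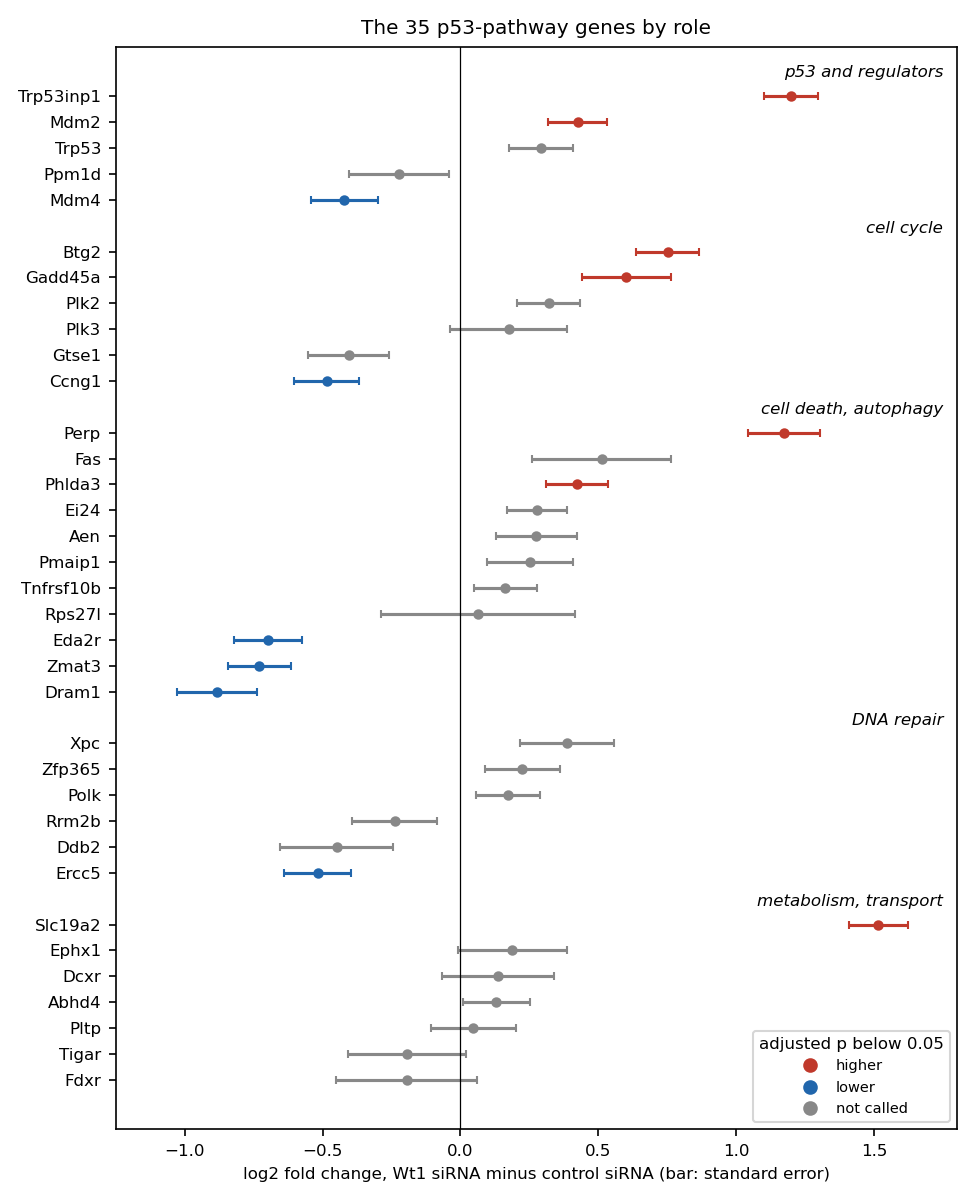
Log2 fold change (x axis, Wt1 siRNA minus control siRNA, bar: SE) of the 35 genes, ordered within 5 roles (y axis). Red marks the 7 genes called higher, blue the 6 called lower and grey the 22 that did not pass. Every role but metabolism and transport has a blue gene, and every role but DNA repair has a red one. Roles hold 5 to 11 genes, and over all genes tested 9.05% were higher and 10.3% lower. A colour absent from so few genes is therefore not read as a difference between roles.

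The promoters of genes that rose and of genes that fell were read for the decamer that p53 binds, of which a full response element holds a pair. RefSeq promoter windows on GRCm38.p6, from 250 bases before to 50 after each annotated start, were at hand for 27 of the 35 genes (33 windows). A match to the consensus p53 decamer, on either strand, was found in 12 of the 33 windows, or 36.4%, against 7.05% of the 14082 windows of genes tested. The list is one of known p53 targets, so this share is a description. Matches were in 2 of the 5 risen genes with a window, 1 of the 5 fallen genes and 8 of the 17 others. A window without a match shows only that these letters are absent there, since many p53 elements lie in introns outside it. The 3 called genes with a match are shown, 2 that rose and 1 that fell. Only single decamers were searched, so a match is not a full response element. Binding of p53 to these decamers was not tested. Each line gives the 250 bases before the start, 5′ to 3′ on the gene's strand, with the decamer in capitals.
Mdm2: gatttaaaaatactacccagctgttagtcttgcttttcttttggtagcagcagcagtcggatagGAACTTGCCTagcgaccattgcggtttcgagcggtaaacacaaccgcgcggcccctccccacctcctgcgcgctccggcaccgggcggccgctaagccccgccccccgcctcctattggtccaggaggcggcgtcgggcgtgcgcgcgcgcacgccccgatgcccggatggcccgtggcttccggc
Gadd45a: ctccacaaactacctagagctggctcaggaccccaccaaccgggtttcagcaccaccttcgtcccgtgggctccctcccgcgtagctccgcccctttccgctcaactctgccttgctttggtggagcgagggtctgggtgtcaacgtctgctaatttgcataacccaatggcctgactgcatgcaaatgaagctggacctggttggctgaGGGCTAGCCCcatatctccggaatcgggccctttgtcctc
Ccng1: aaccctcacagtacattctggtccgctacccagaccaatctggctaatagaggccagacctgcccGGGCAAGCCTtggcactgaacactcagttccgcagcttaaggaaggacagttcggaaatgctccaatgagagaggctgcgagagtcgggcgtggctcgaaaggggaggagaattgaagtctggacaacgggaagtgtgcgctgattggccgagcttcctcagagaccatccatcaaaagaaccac

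The windows are chr10:117710759-117711008, chr6:67037408-67037657 and chr11:40755287-40755536 in that order, all on the minus strand. The decamer begins 186 bases before the start of Mdm2, 40 before that of Gadd45a and 185 before that of Ccng1.

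The p53 gene itself and the proteins that hold it in check came first. Trp53 (chromosome 11, 69580348 to 69591873) stood at 37.1, 38.3 and 41.3 CPM in the controls and at 47.2, 51.2 and 44.5 CPM after Wt1 siRNA. All 3 knockdown libraries were above all 3 controls, but the difference did not pass (log2 fold change 0.29 ± 0.12, edgeR adjusted p = 0.101, unadjusted 0.0270, and adjusted 0.0841 to 0.294 over 13 alternatives). Of the p53 family members, Trp73 had no count in any library, and Trp63 had counts in control library 3 (0.376 CPM) and Wt1 siRNA library 5 (0.0725 CPM) only. In a library, 3 counts, the limit that a count of 0 allows, are worth 0.0935 to 0.115 CPM before scaling with TMM factors.

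The paired inhibitors of p53 went in opposite directions, but both calls depended on single libraries, as given further below. Mdm2, the ubiquitin ligase that p53 induces, had 208, 181 and 214 CPM in the controls and 278, 253 and 278 CPM after Wt1 siRNA. Its knockdown libraries all lay above the controls (log2 fold change 0.43 ± 0.11, edgeR adjusted p = 0.0156). Mdm4, the related protein that binds p53 without strong ligase activity of its own, had 36.0, 35.8 and 37.6 CPM in the controls and 29.3, 24.9 and 27.5 CPM after Wt1 siRNA. Here the knockdown libraries were all lower (-0.42 ± 0.12, adjusted p = 0.0306). Per kilobase of annotated exon, the level of Mdm2 was 63.9 CPM in controls, above that of Trp53 at 20.8 and Mdm4 at 3.36. Ppm1d, the WIP1 phosphatase that ends the p53 response, overlapped between the groups at 12.1 ± 1.88 and 10.4 ± 0.668 CPM (adjusted p = 0.447).

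Trp53inp1, a stress protein that takes part in p53 phosphorylation and in autophagy, showed the second largest rise among the 35. Control libraries held 102, 96.9 and 98.1 CPM of it, Wt1 siRNA libraries 236, 219.5 and 227 CPM. The groups were far apart and each was tight, with a highest to lowest ratio of 1.055 among the controls (log2 fold change 1.20 ± 0.10, 2.30-fold, adjusted p = 2.24e-05). Among all genes tested it had rank 27 by p.

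Genes of cell cycle arrest were also split. Btg2, an antiproliferative cofactor of mRNA deadenylation, had 74.7, 70.7 and 86.2 CPM in controls and 125, 141 and 124 CPM after Wt1 siRNA. No knockdown library reached down to the controls (log2 fold change 0.75 ± 0.11, adjusted p = 9.26e-04). Gadd45a, a stress sensor that acts on cell cycle kinases and DNA repair, had 33.4, 47.3 and 33.7 CPM in controls and 59.3, 65.7 and 48.6 CPM after Wt1 siRNA. Control library 2 came close to knockdown library 6, and the groups did not overlap (0.60 ± 0.16, adjusted p = 0.0222). An overlapping gene, E230016M11Rik, shares 809 bases of the Gadd45a span (log2 fold change 0.55, adjusted p = 0.169, not passing), so their reads may be shared.

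Ccng1, cyclin G1, one of the classical p53 targets and a partner of a phosphatase that acts on MDM2, went the other way. It had 878, 793 and 1043 CPM in controls and 681, 663 and 596 CPM after Wt1 siRNA. Every knockdown library was lower (log2 fold change -0.48 ± 0.12, 1.40-fold lower, adjusted p = 0.0134). Per kilobase of exon it had the highest level of the 35 in both groups, at 258 CPM and 184 CPM. Its promoter window carries a single match to the p53 decamer, printed above, as do those of Mdm2 and Gadd45a.

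The polo-like kinases Plk2 and Plk3, which act in stress checkpoints, did not pass. Plk2 had 384, 335 and 437 CPM in controls and 499.9, 459 and 485 CPM after Wt1 siRNA, without overlap (log2 fold change 0.32 ± 0.11, adjusted p = 0.0691). Plk3 overlapped, at 13.4 ± 3.59 and 15.1 ± 2.16 CPM. Gtse1, a G2-phase protein that binds p53 and moves it out of the nucleus, had 24.4, 25.6 and 26.2 CPM in controls and 20.7, 15.9 and 20.97 CPM after Wt1 siRNA (-0.40 ± 0.15, adjusted p = 0.0746). In the same libraries all 12 genes of a G2/M list were lower, against 10.3% of all genes tested. Their log2 fold changes were -1.80 to -0.94, and the part of this in the Gtse1 values was not tested.

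**Figure D2:**
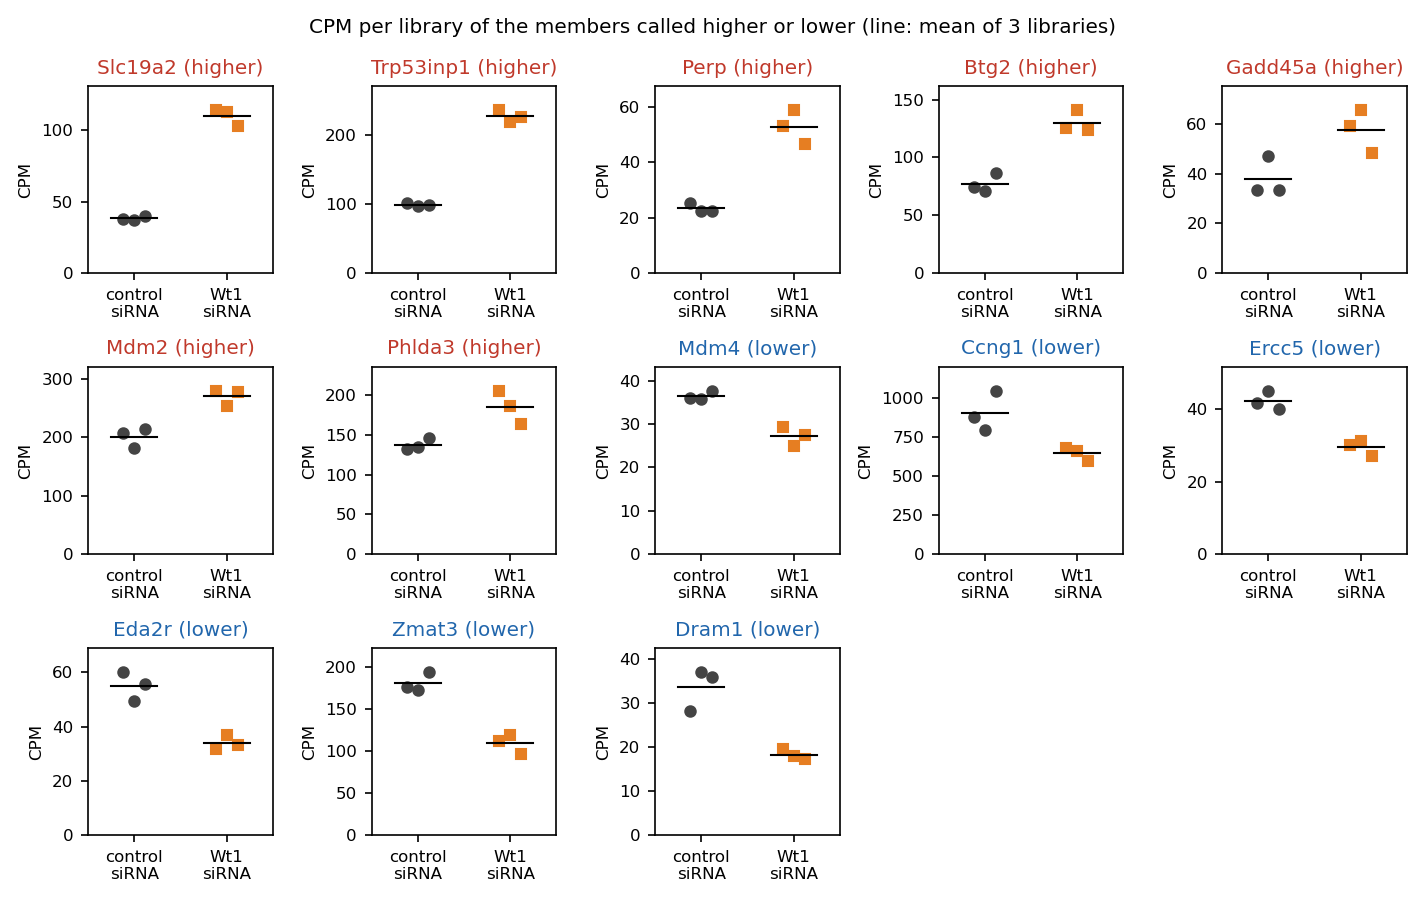
CPM (y axis, linear from 0) in each library of the 13 genes called higher or lower, with control siRNA as circles, Wt1 siRNA as squares and the mean of 3 libraries as a line. In all 13 panels the groups do not overlap, from Slc19a2 at 37.3 to 39.995 against 103 to 114 CPM down to Dram1 at 28.1 to 36.9 against 17.2 to 19.5 CPM. The 13 genes were picked by their adjusted p in these same libraries, so this separation is no further result.

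Among genes of cell death, a desmosome-linked effector rose while an RNA-binding protein, a receptor and an autophagy regulator fell. Perp, a membrane protein of desmosomes that p53 induces during apoptosis, had 25.4, 22.5 and 22.3 CPM in controls and 53.04, 58.7 and 46.7 CPM after Wt1 siRNA. The lowest knockdown library was well above the highest control (log2 fold change 1.17 ± 0.13, 2.26-fold, adjusted p = 1.49e-04). Phlda3, a p53 target that competes with the kinase AKT for membrane lipids, had 132, 135 and 146 CPM in controls and 205, 186 and 164 CPM after Wt1 siRNA. These groups were closer, with knockdown library 6 nearest to the controls (0.42 ± 0.11, adjusted p = 0.0204).

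Dram1, a lysosomal membrane protein that links p53 to autophagy, showed the largest fall of the 35. It had 28.1, 36.9 and 35.8 CPM in controls and 19.5, 17.98 and 17.2 CPM after Wt1 siRNA. The knockdown libraries were all below the lowest control, library 1 (log2 fold change -0.88 ± 0.14, 1.84-fold lower, adjusted p = 0.00142). Its span overlaps 1339 bases of Washc3 on the opposite strand, itself short of the threshold (log2 fold change -0.18, adjusted p = 0.426).

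Zmat3, a zinc finger protein that binds RNA and is among the most regular p53 targets in mouse tissues, had 176, 172 and 193 CPM in controls and 111, 119 and 95.7 CPM after Wt1 siRNA. The fall was larger than the spread in either group (log2 fold change -0.73 ± 0.11, 1.66-fold lower, adjusted p = 0.00109). Eda2r, a receptor of the TNF receptor family that binds the ectodysplasin A2 ligand, had 59.9, 49.6 and 55.8 CPM in controls and 31.6, 36.9 and 33.4 CPM after Wt1 siRNA. It too was lower in all 3 knockdown libraries (-0.70 ± 0.12, adjusted p = 0.00229).

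The other 6 death genes had positive log2 fold changes that did not pass, between 0.06 and 0.51. Ei24, a membrane protein of the endoplasmic reticulum, had 102, 105 and 110.4 CPM in controls and 128, 141 and 115 CPM after Wt1 siRNA, without overlap (0.28 ± 0.11, adjusted p = 0.0987). The death receptor Fas was scarce and varied, at 10.9, 7.95 and 6.13 against 13.8, 8.63 and 13.3 CPM (0.51 ± 0.25, adjusted p = 0.185). Values of Tnfrsf10b, the mouse TRAIL receptor (adjusted p = 0.370), Aen, an apoptosis-linked nuclease (0.228), and Pmaip1, the BH3-only protein NOXA (0.296), overlapped between the groups. Rps27l, a ribosomal protein variant whose reads may be shared with close copies, had the highest control ratio of highest to lowest library among the 35, 2.68, from 5.60 to 15.0 CPM (adjusted p = 0.932).

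Of 6 DNA repair genes, Ercc5 alone passed, or 16.7%, near the 19.3% of all genes tested. Ercc5, the XPG nuclease of nucleotide excision repair, had 41.9, 44.9 and 40.1 CPM in controls and 30.1, 31.4 and 27.2 CPM after Wt1 siRNA. All knockdown libraries were below all controls (log2 fold change -0.52 ± 0.12, 1.43-fold lower, adjusted p = 0.0108). The damage sensors of the same pathway were apart in opposite directions without passing. Xpc had 12.8, 17.2 and 12.1 against 18.9, 17.9 and 18.2 CPM (0.39 ± 0.17, adjusted p = 0.139). Ddb2 had 11.7, 9.08 and 10.9 against 7.92, 6.31 and 8.95 CPM (-0.45 ± 0.21, adjusted p = 0.155), and over 2554 bases it overlaps Acp2, which lies on the opposite strand and had 106 CPM in controls. The translesion polymerase gene Polk (0.17 ± 0.12) and Zfp365, a zinc finger gene of genome stability (0.22 ± 0.14), had all knockdown libraries above the controls, and Rrm2b, the p53-induced subunit of ribonucleotide reductase, overlapped (-0.24 ± 0.16); none of the 3 passed.

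Among metabolic targets Slc19a2, the thiamine transporter THTR1, had the largest rise of the 35. Control libraries held 37.97, 37.3 and 39.995 CPM of it, Wt1 siRNA libraries 114, 113 and 103 CPM. The controls differed by a highest to lowest ratio of 1.07, and every knockdown library was far above them (log2 fold change 1.51 ± 0.11, 2.86-fold, adjusted p = 1.11e-05). Of this role 14.3% of the genes were called, against 19.3% of all genes tested. The other 6 genes of the role overlapped between the groups and did not pass, with log2 fold changes from -0.20 to 0.19. They are Ephx1, an epoxide hydrolase, Dcxr, a xylulose reductase, Abhd4, a lipase of N-acyl phospholipids, Pltp, the phospholipid transfer protein, Tigar, a fructose bisphosphatase, and Fdxr, the ferredoxin reductase of mitochondria. Ephx1 ranged from 55.6 to 95.2 CPM in controls and from 65.9 to 102 CPM after Wt1 siRNA, the lowest values being those of control library 3 and knockdown library 6. Pltp overlaps Ctsa on the opposite strand over 1515 bases.

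The calls did not all rest equally on the 6 libraries. In 7 of the 13 genes (Slc19a2, Trp53inp1, Perp, Btg2, Eda2r, Zmat3 and Dram1) the call held in each of 13 alternatives of tool, scaling, filter or library left out. Without Wt1 siRNA library 4, 4 of the 35 genes were higher and 3 lower, while the share of all genes called was 9.33%. The 6 calls lost there were those of Mdm2 (adjusted p = 0.0909), Mdm4 (0.0741), Ccng1 (0.0543), Gadd45a (0.0908), Phlda3 (0.131) and Ercc5 (0.0545). Mdm4 was also lost on leaving out control library 1 (0.0676) or 3 (0.0890), or Wt1 siRNA library 5 (0.121) or 6 (0.0677). Gadd45a was lost on leaving out control library 1 (0.0837) or 3 (0.0937), or Wt1 siRNA library 5 (0.0846). The call of Phlda3 was lost on leaving out control library 1 (0.0628) or Wt1 siRNA library 5 (0.0562), and that of Ccng1 without control library 3 (0.0554). With scaling by library size alone the adjusted p of Mdm2 was 0.0586 and that of Phlda3 0.0515.

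**Figure D3:**
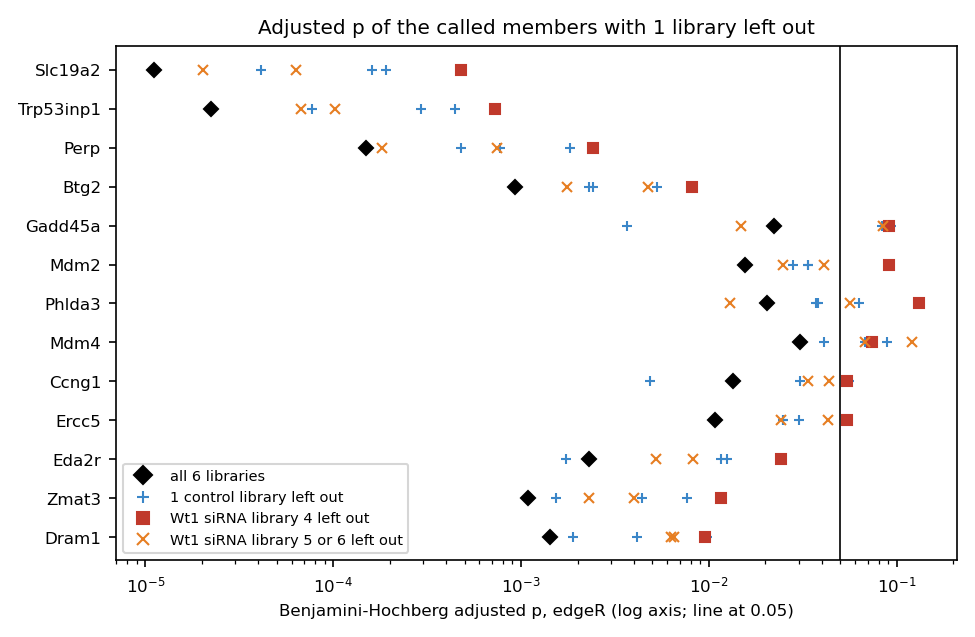
Benjamini-Hochberg adjusted p of edgeR (x axis, log scale, line at 0.05) for the 13 called genes (y axis) with all libraries (diamonds) and with 1 left out (crosses and squares). Red squares, for the fit without Wt1 siRNA library 4, lie to the right of the line in Gadd45a, Mdm2, Phlda3, Mdm4, Ccng1 and Ercc5, from 0.0543 to 0.131.

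Of another 15 known p53 targets outside the 35, 6 rose, 2 fell and 7 missed the threshold, and the median of their log2 fold changes was 0.17. The higher genes are 40.0% of the 15 and the lower ones 13.3%, against 9.05% and 10.3% of all genes tested. Cdkn1a, the p21 inhibitor of cyclin-dependent kinases and the best known arrest gene of p53, had 445, 579 and 474 CPM in controls and 669, 820.2 and 612 CPM after Wt1 siRNA. The groups did not overlap (log2 fold change 0.49 ± 0.13, adjusted p = 0.0245), but the call was lost when control library 1 (0.0902) or 3 (0.0878), or Wt1 siRNA library 4 (0.0766) or 5 (0.101), was left out. Bbc3, the BH3-only protein PUMA, had 6.73, 10.9 and 7.97 against 20.3, 23.6 and 15.0 CPM (1.20 ± 0.22, adjusted p = 0.00319). Bax, the pore-forming death effector, had 47.3, 45.4 and 41.5 against 55.9, 60.1 and 58.5 CPM (0.38 ± 0.11, adjusted p = 0.0329), a call lost without control library 3 (0.110), without Wt1 siRNA library 4, 5 or 6 (0.0943, 0.105 and 0.0749) and with library size scaling (0.107).

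The sestrins, stress proteins that restrain mTORC1, parted. Sesn2 had 55.6, 58.9 and 49.99 CPM in controls and 156, 153.5 and 136 CPM after Wt1 siRNA (log2 fold change 1.44 ± 0.11), whereas Sesn1 overlapped at 22.7 ± 4.20 and 21.2 ± 1.92 CPM (adjusted p = 0.729). Gdf15, a secreted stress cytokine, had 7.25, 12.001 and 5.90 CPM in controls and 40.9, 38.3 and 37.1 CPM after Wt1 siRNA (2.21 ± 0.22). Steap3, a metalloreductase, was lower (-0.76 ± 0.22, adjusted p = 0.0299), as was Pml, the scaffold of nuclear bodies (-0.41 ± 0.13, adjusted p = 0.0405). The number of lower genes in this list dropped to 0 when control library 1 or 3, or Wt1 siRNA library 4 or 5, was left out, and to 1 when library 6 was. Its number of higher genes was 4 to 5 with a library left out.

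Of 22 genes acting on p53 from upstream or as partners, 20 were tested, 1 was higher and 0 lower by edgeR. That is 5% higher and 0% lower, against 9.05% and 10.3% of all genes tested. At an unadjusted p of 0.05, 4 of the 20 were higher and 0 lower. Of the 14190 genes tested, 2208 were higher and 2343 lower at that threshold. DESeq2 and limma-voom each called 0 of the 20 lower. The one that rose was Sirt1, a deacetylase of p53, with 18.8, 15.8 and 22.9 CPM in controls and 31.9, 29.0 and 32.9 CPM after Wt1 siRNA (log2 fold change 0.71 ± 0.15, adjusted p = 0.00760). The damage kinases Atm (adjusted p = 0.339), Atr (0.195), Chek1 (0.170) and Chek2 (0.670) did not pass, nor did Cdkn2a, whose locus encodes the MDM2 inhibitor ARF (0.47 ± 0.19, 0.115).

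Some stress genes respond both to p53 and to ATF4, the transcription factor of amino acid and endoplasmic reticulum stress, Sesn2 and Trp53inp1 among them. Of 11 genes of an ATF4 list, which also holds Sesn2, 9 were higher and 0 lower by edgeR. The higher genes are 81.8% of the 11, against 9.05% of all genes tested, while 10.3% of all genes were lower. Atf4 itself overlapped between the groups and did not pass (log2 fold change 0.33 ± 0.13, edgeR adjusted p = 0.0927). The count of lower genes was 0 too by limma-voom, by DESeq2 and at an unadjusted p of 0.05. At that unadjusted p 2343 of the 14190 genes tested were lower. The list's median was 0.90 beside 0.17 for the p53 list. Its summed level was 853 to 1064 CPM in controls and 1486 to 1861 CPM after Wt1 siRNA. Cth, which makes cysteine, had a log2 fold change of 2.09 ± 0.22, Asns, asparagine synthetase, of 1.11 ± 0.10 and Psat1, of serine synthesis, of 1.11 ± 0.14. Btg2, Plk2 and Plk3 are also known as immediate early genes. Of 12 other immediate early genes 1 was higher, Ier2 (0.50 ± 0.13, edgeR adjusted p = 0.0160), and 0 lower, with a median of -0.02. The higher gene is 8.33% of the 12, near the 9.05% of all genes tested. Of the 12, 2 were lower at an unadjusted p of 0.05, as were 2343 of the 14190 genes tested. A call of lower was given to 1 of the 12 with DESeq2, with library size scaling or without control library 2. The call of Ier2 was lost when control library 1 (0.0566) or Wt1 siRNA library 6 (0.0600) was left out. The part of either programme in the values of the 35 genes was not tested.

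**Figure D4:**
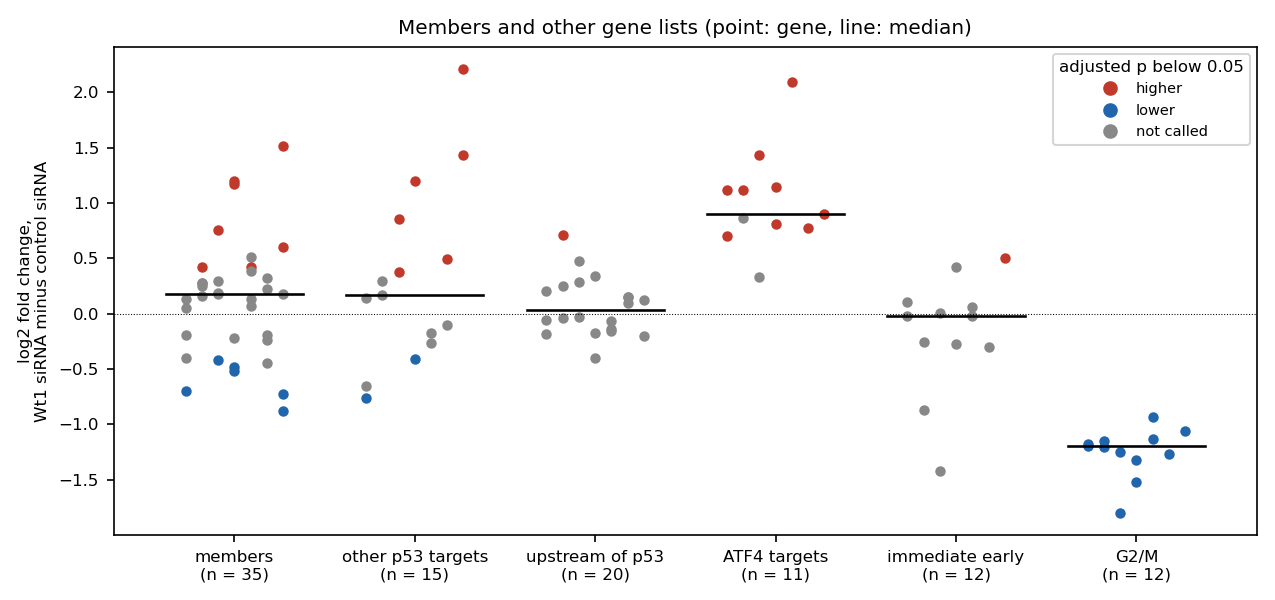
Log2 fold change (y axis, Wt1 siRNA minus control siRNA) of each tested gene (point) in the 35 p53 genes and in 5 other lists (x axis), with list medians as lines and calls coloured as labelled. Both p53 lists spread over positive and negative values around medians of 0.17, the ATF4 list lies above 0 and the G2/M list below it.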

How the data were processed

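The deposited table holds whole-number counts of reads per Entrez gene ID, raw and without normalization, for 6 libraries made from silica-column total RNA, per the labels' protocols. The submitters' processing notes list bcl2fastq, CASAVA 1.8, TopHat and DESeq and the build mm10 (GRCm38), with no role or order. No counting tool, annotation or strand setting was stated there, so reads of overlapping genes and close copies cannot be told apart.

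IDs were matched to RefSeq GRCm38.p6 (23976) or GENCODE (7), and 78 stayed in the table unnamed. They held 0.435% to 1.71% of a library's counts. Genes were tested in R 4.3.3 by edgeR 4.0.16 (quasi-likelihood) after TMM scaling, with the filterByExpr filter, siRNA group as the only term and Benjamini-Hochberg adjustment over all genes tested, called at 0.05. It was tested on simulated data. Standard errors were derived from the size of each log2 fold change and its F statistic (size over root F). Alternatives used DESeq2 1.42.0, limma-voom (limma 3.58.1), robust edgeR, other scalings and filters, and each library left out. Exon lengths are unions of GENCODE M21 basic exons. Within groups, chi-square values per degree of freedom were 18.9 to 70.9, so no pair agreed within sampling noise.

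The 35 genes and the other lists were chosen with earlier results of these data known. Named genes are all 35, with values per library for those called and for Trp53, Mdm2, Mdm4 and Cdkn1a, and of each other list up to 4 called genes of smallest p, with Bax, Bbc3, Sesn1 and Wt1. Others named, with values of genes short of the threshold and of overlapping genes, were chosen after their values were seen. No set test was made.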

Additional observations from a re-analysis of the deposited data

How the results depend on the processing

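No paired analysis was possible because the replicate numbers of the groups, 1 to 3 and 4 to 6, do not recur across groups. With 1 library left out, 1363 to 2659 of all genes were called in place of 2743, 4 to 8 of the 35 p53 genes were higher in place of 7, 3 to 6 were lower in place of 6, and their median log2 fold change was 0.13 to 0.22 in place of 0.17. The lowest of the 3 counts were without Wt1 siRNA library 4; the cause was not tested. Scaling by library size alone gave a median of 0.085 for the 35 genes and of -0.08 over all genes, with 5 of the 35 higher and 7 lower, and 31.9% of all calls higher in place of 46.8%. Under DESeq2, limma-voom, robust edgeR, relative log expression factors, no filter and a stricter filter, 7 to 8 of the 35 were higher and 6 lower. Of the 22 genes that did not pass, 3 passed in an alternative: Gtse1 with library size scaling (adjusted p = 0.0486), Plk2 with DESeq2 (0.0382) or without control library 3 (0.0376), and Xpc without control library 2 (0.0308). None of the 13 called genes changed sign in these alternatives. Wt1 was called in all of them, at -2.65 to -2.38. The 8 genes of lowest control mean, 7.99 to 14.0 CPM, had standard errors of 0.17 to 0.35.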

Other observations

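Promoter windows of the 35 p53 genes were also read for motifs of the knocked-down factor's class and of ATF4. The GC-rich motif GCGNGGGNG, bound by zinc finger factors of the WT1 and EGR kind, was found on either strand in 6 of 33 windows of the 35 genes, or 18.2%, against 20.7% of the windows of genes tested. Among called genes it stood before Btg2 and Slc19a2, which rose, and before Dram1, which fell. The core TGATGNAA of the element bound by ATF4 with C/EBP factors was in 1 of the 33 windows, that of Polk, or 3.03% against 2.42% of the windows of genes tested. These motifs and the p53 decamer were searched after the expression values were seen.

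Per kilobase of annotated exon, the levels of the 35 genes in controls ran from 3.05 CPM for Tigar to 258 CPM for Ccng1. Plk2, at 138 CPM, and Phlda3, at 96.1 CPM, followed Ccng1. After Wt1 siRNA Ccng1 at 184 CPM and Plk2 at 172 CPM were closer together, at 647 ± 44.8 and 481 ± 20.9 CPM before division by length.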
